A study of Arabidopsis thaliana with 6 samples.

Results

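Pyruvate decarboxylase takes pyruvate, the end product of glycolysis, to acetaldehyde and carbon dioxide, and is the entry step of ethanol fermentation. The acetaldehyde is reduced to ethanol by alcohol dehydrogenase, which returns NADH to NAD+ and so lets glycolysis run without respiration, or it is oxidised by aldehyde dehydrogenase towards acetate and acetyl-CoA. In Arabidopsis these genes are best known for their induction when oxygen is short.

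The genes described are PDC2 (AT5G54960), PDC3 (AT5G01330) and PDC1 (AT4G33070), with the glyceraldehyde-3-phosphate dehydrogenase (GAPDH) control probe sets of the array as a glycolytic comparison. They were chosen by the difference between the genotypes on these same arrays, where PDC2 was already known to be far higher in one of them, so their differences are given as a description, with no test. The rule asked for probe sets that match a single gene. Of the 3 genes, 1 met it, PDC2, out of 13355 genes with such a probe set. AT5G01330 was measured by 1 probe set shared with its direct neighbour AT5G01320, and no part of that signal can be assigned to either gene. AT4G33070 was not analysed here, since no probe set carried it in the annotation used.

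Each of the 6 samples was hybridised to its own ATH1 array, a single-colour array with short oligonucleotide probes. The plants were 10-day-old Arabidopsis seedlings grown on agar under 16 h of light and 8 h of dark. Stratification, a cold treatment of the seed, lasted 2 days for all 6 samples. Only the aerial parts were taken, 2 h into the light period. Both groups are of the accession Columbia-0. The first is the wild type with 3 arrays, and the second, also with 3, is SPT4-R3, numbered as the third RNA interference line against SPT4, which encodes a subunit of a transcript elongation factor of RNA polymerase II. A single line was used, no control construct is named for the wild type, and the labels do not give the promoter of the RNA interference construct or say whether replicates were grown separately, so that the p-values rest on sample spread that may be technical.

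The arrays were alike in their overall level, with medians of 6.49 to 6.53 on the deposited log2 scale, on which a difference of 1 is a doubling of signal. Of the 2 SPT4 genes listed as targets, only SPT4-1 (AT5G08565) was measured, and the sample titles do not say which of them the construct targets. SPT4-1 read 5.79, 6.05 and 6.03 in wild type, against 5.0, 4.89 and 4.97 in SPT4-R3 (adjusted p = 2.15e-06 in limma). A lower signal is the direction of RNA interference against SPT4. The trp controls, bacterial sequences that mark the background, read 3.46 to 3.84 over all arrays. The bacterial bioB, bioC and bioD hybridisation controls were lower in SPT4-R3 by 0.39, so directions here are relative to most probe sets, and each difference moves up by that amount where the arrays are scaled on these controls, called the bio scale below. On the bio scale 78.2% of the 13355 genes with a probe set of their own were called higher and 5.98% lower, and counts on it are to be read against these shares. The limma SE on this scale was the same, 0.1036, for each gene named from the lists. A call there is thus a cutoff on the size of the shifted difference. Its adjusted p does not measure the spread of the single gene. The 5 measured leaf markers were bright and all fell. On the deposited scale 21.6% of all genes were called lower, and 46.3% were called in either direction. Marker sums here are the log2 of the summed linear signals. That of the leaf markers went from between 16.14 and 16.16 to between 15.57 and 15.63. On the bio scale 1 of the 5 was called lower. None of the 4 root markers passed the test (4 higher on the bio scale), and their sum lay at 11.74 to 11.85 in wild type and 11.75 to 11.81 in SPT4-R3. Nearly all of that sum is PYK10 (AT3G09260), at 11.8 in both genotypes, while the other 3 read below 5.2. The 2 measured seed maturation genes summed to between 4.71 and 4.91 in wild type, against 8.83 to 9.21 in SPT4-R3, set by M17 (AT2G41260). The part of leaf and seed markers in the results that follow was not tested. In whole aerial parts, fewer cells of a type and less RNA per cell cannot be told apart.

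PDC2 was among the genes with the largest increase in SPT4-R3. It read 6.40, 6.52 and 6.50 in wild type, against 9.36, 9.41 and 9.34 in SPT4-R3. The genotypes were far apart, each of the SPT4-R3 values lying above all of the wild-type values by many times the spread within a genotype. The means were 6.47 ± 0.0643 (SD, n = 3) and 9.37 ± 0.0361, a difference of 2.90 ± 0.0556 (moderated SE) or 7.45-fold. Even the wild-type values stood well clear of the trp controls, so the gene was measured above background in both genotypes. By size of increase PDC2 was in place 7 of the 13355 genes with a probe set of their own and in place 14 of all 22746 plant probe sets. No overlap between genotypes is common here, since it was found for 51.7% of the genes. Nothing is read from it for PDC2 or for the other probe sets and measures below.

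The probe set shared by AT5G01330 (PDC3) and AT5G01320 showed much the same pattern. It read 6.29, 6.25 and 6.31 in wild type, against 8.81, 8.86 and 8.93 in SPT4-R3. Again the arrays of a genotype lay close together and the genotypes did not overlap. The difference was 2.58 ± 0.0544 (moderated SE), or 5.99-fold, in place 22 of the 22746 plant probe sets. AT5G01320 and AT5G01330 lie next to each other in the RefSeq gene table (assembly TAIR10.1), and the probe set counts transcripts of both as 1 signal. Either gene alone, or both, could carry the increase.

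The increase of PDC2 was somewhat larger than that of the shared probe set. Taken within each array, the log2 signal of PDC2 minus that of the shared probe set was 0.11, 0.27 and 0.19 in wild type, against 0.55, 0.55 and 0.41 in SPT4-R3. The genotypes did not overlap in this measure, and its mean moved by 0.31, a 1.24-fold difference between the 2 increases. A measure taken within an array does not depend on how the arrays were scaled. After each probe set was centred on its own mean, the 6 values of the 2 probe sets differed by a root mean square of 0.170.

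**Figure D1:**
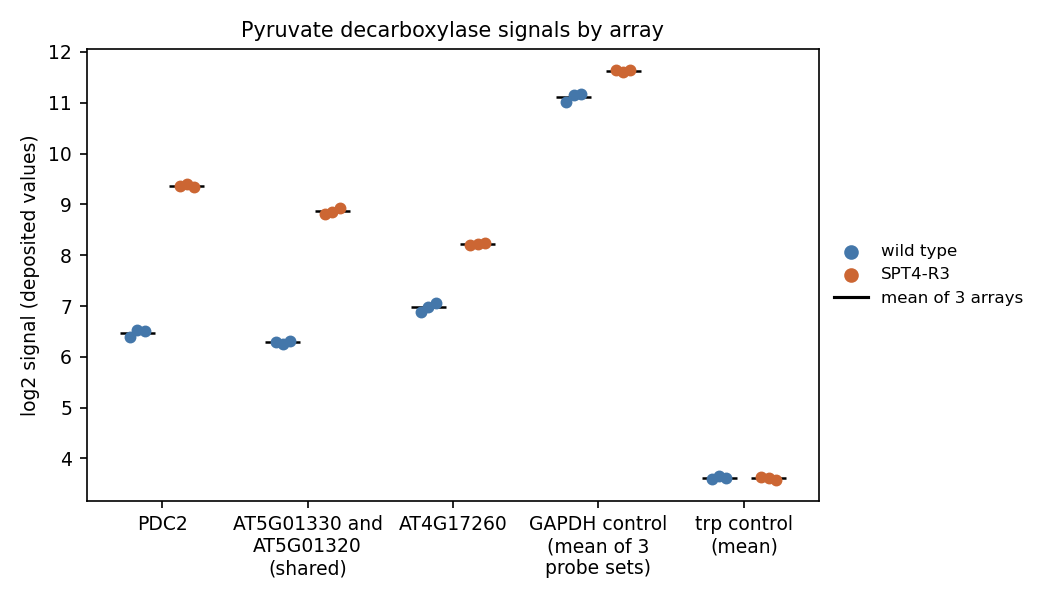
Log2 signal on each array (vertical axis) for PDC2, the probe set shared by AT5G01330 and AT5G01320, the lactate dehydrogenase gene AT4G17260, the GAPDH controls and the trp background controls. Points are single arrays, 3 of wild type and 3 of SPT4-R3, and lines are means; PDC2 goes from about 6.47 to 9.37, while the GAPDH controls go from 11.11 to 11.63.

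The GAPDH controls, for an enzyme of the middle of glycolysis, were also higher in SPT4-R3, by much less. The mean of the 3 probe sets (3′, middle and 5′) was 11.01, 11.15 and 11.18 in wild type, against 11.65, 11.61 and 11.64 in SPT4-R3. The genotypes did not overlap, and the difference was 0.52, or 1.43-fold, with SDs of 0.0914 and 0.0186 (n = 3 each). The 3 probe sets taken singly gave 0.47 at the 3′ end, 0.58 in the middle and 0.51 at the 5′ end. A second pair of GAPDH controls on the array gave 0.64 at the 3′ end and 0.45 at the 5′ end. In that pair the 3′ minus 5′ difference, a sign of RNA integrity, was 0.44 ± 0.0954 (SD, n = 3) for wild type against 0.63 ± 0.0721 for SPT4-R3, without overlap, whereas in the first set it was 1.61 ± 0.147 and 1.57 ± 0.208 with overlap. The part of RNA integrity in the differences was not tested.

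Against this glycolytic reference the pyruvate decarboxylase signal was higher in each SPT4-R3 array. PDC2 minus the GAPDH control mean was -4.61, -4.63 and -4.68 in the wild-type arrays and -2.29, -2.20 and -2.30 in the SPT4-R3 arrays. The arrays of each genotype lay within 0.1 of each other on this scale, and the mean moved by 2.38, or 5.20-fold. For the shared probe set of AT5G01330 and AT5G01320 the same measure moved by 2.06, or 4.18-fold. The increase of the pyruvate decarboxylase signals was therefore larger than that of the GAPDH controls however the arrays are scaled.

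The other genes of the route were compared with limma, adjusting p over all 22746 plant probe sets and calling those with an adjusted p under 0.05. At that threshold 46.3% of the 13355 genes were called, 24.7% higher and 21.6% lower, with a median difference of -0.003. The lists are by locus. Where a gene is given by its locus alone, the reference tables carry no enzyme name for it, and the enzyme stated is that of the list as written.

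Glycolysis genes were mostly higher, by small amounts. Of 54 listed genes 16 were measured, of which 10 rose, 2 fell and 4 did not pass the test, with a median difference of 0.24; on the bio scale 14 were higher and none lower, where 78.2% of all genes were higher. TPI (AT3G55440), the cytosolic triosephosphate isomerase, rose by 0.65 ± 0.0534 (SE, adjusted p = 3.87e-06 in limma) from 12.44 to 13.09. GAPC2 (AT1G13440), a cytosolic form of the enzyme that the control probe sets stand for, read 13.30, 13.22 and 13.26 in wild type, against 13.56, 13.61 and 13.58 in SPT4-R3. Its increase of 0.32 ± 0.0514 (adjusted p = 0.000439) lay below the 0.52 of the GAPDH controls, a gap that was not tested, and it is named here after its values were seen. AT1G56190, listed as a phosphoglycerate kinase, rose by 0.65 ± 0.0544. The 3 measured genes of the pyrophosphate-dependent phosphofructokinase, which acts near the start of the route, gave 0.27, 0.27 and -0.12, and the last, AT1G76550, did not pass the test (adjusted p = 0.0921 in limma). ALDH11A3 (AT2G24270), the non-phosphorylating GAPDH, went the other way and fell by 0.54 ± 0.0584, or by 0.14 without a call on the bio scale (adjusted p = 0.185 in limma).

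Pyruvate kinase, the enzyme that makes the substrate of pyruvate decarboxylase, divided by signal level. Of 7 genes with a probe set of their own, 3 rose, 1 fell and 3 did not pass the test, and on the bio scale 6 were higher and none lower, again beside 78.2% of all genes higher. The 3 that rose were those with a mean of at least 7 in a genotype, a boundary set after the values were seen. AT5G63680 read 7.59, 7.84 and 7.63 in wild type, against 8.71, 8.67 and 8.77 in SPT4-R3, an increase of 1.03 ± 0.0719 (SE, adjusted p = 1.31e-06 in limma). AT5G08570 rose by 0.83 ± 0.0520 from 9.31 to 10.14, and AT5G56350 by 0.79 ± 0.0514 from 8.29 to 9.08. In none of the 3 did the genotypes overlap, which was so for 51.7% of all genes. The other 4 had means below 5 in both genotypes; AT3G49160 fell by 0.46, and AT3G04050, AT3G25960 and AT4G26390 gave 0.10, 0.01 and -0.05. A probe set shared by AT3G52990 and AT2G36580, both listed as pyruvate kinases, rose by 0.92 ± 0.0738 (adjusted p = 3.44e-06), where 26.4% of plant probe sets were called higher, and 1 shared by AT3G55810 and AT3G55650 read 3.75 and 3.68 on average, near background.

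AT5G08570 and AT5G63680 are also direct neighbours of the SPT4 genes, each on 1 side. In the RefSeq table AT5G08570 is the next protein-coding gene after SPT4-1 (AT5G08565), and AT5G63680 is the next after SPT4-2 (AT5G63670). SPT4-1 fell by 1.0 ± 0.0753 (SE), and AT5G08570 rose by 0.83. The direct neighbour on the other side of SPT4-1, AT5G08560, read 9.25 in wild type, against 9.19 in SPT4-R3, and did not pass the test (adjusted p = 0.382 in limma). SPT4-2 was not analysed here, since no probe set carried it in the annotation used. On its other side PDF2.5 (AT5G63660), a plant defensin gene, read 3.84 and 3.99 and did not pass the test either (adjusted p = 0.098 in limma). AT5G08560 and PDF2.5 were both called higher on the bio scale, at 0.33 and 0.55. Further out near SPT4-1, AT5G08540 rose by 0.60 and AT5G08580 by 0.43. Near SPT4-2, AT5G63700 fell by 0.42, or by 0.03 without a call on the bio scale. AT5G63640 and AT5G63690 there did not pass the test, but were called higher on the bio scale. AT5G56350, with an increase of 0.79, and the shared probe set of AT3G52990 and AT2G36580 belong to pyruvate kinases that are not next to an SPT4 gene. The part of position in these differences was not tested.

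**Figure D2:**
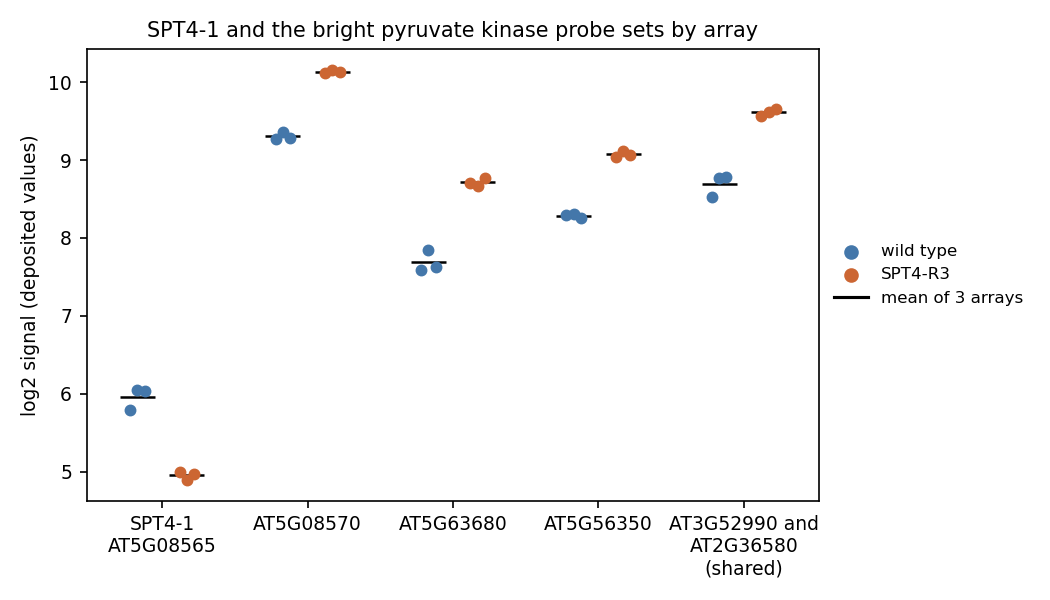
Log2 signal on each array (vertical axis) for SPT4-1, 3 pyruvate kinase genes and the probe set shared by AT3G52990 and AT2G36580. Points are single arrays and lines are means of 3; SPT4-1 is lower in SPT4-R3 and each of the 4 pyruvate kinase probe sets is higher, by between 0.79 and 1.03.

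Genes of the mitochondrial pyruvate dehydrogenase rose, while those measured for the plastid complex did not, except that 1 of 2 was called higher on the bio scale. Of 20 listed genes of mitochondrial and plastid pyruvate use 8 were measured, of which 5 rose, 1 fell and 2 did not pass the test, with a median of 0.34 (7 higher on the bio scale, beside 78.2% of all genes). All 4 measured genes of the mitochondrial pyruvate dehydrogenase, which turns pyruvate into acetyl-CoA for respiration, rose by 0.39 to 0.97. Over all genes 24.7% were called higher. Among the 4, the gains differed in size. Among them AT1G54220, listed as an E2 subunit, read 7.59, 7.55 and 7.62 in wild type, against 8.59, 8.53 and 8.56 in SPT4-R3, an increase of 0.97 ± 0.0513 (SE, adjusted p = 1.86e-07 in limma). AT3G13930, listed as another E2 subunit, rose by 0.67, MAB1 (AT5G50850), the E1 beta subunit, by 0.41 and LTA3 (AT3G52200), an E2 subunit, by 0.39. In the plastid complex AT2G34590, listed as an E1 beta subunit, fell by 0.28. On the bio scale it lay above wild type by 0.11, without a call (adjusted p = 0.311 in limma). AT4G16155, a dihydrolipoamide dehydrogenase, gave 0.01 (adjusted p = 0.934 in limma). Of the mitochondrial pyruvate carriers AT4G22310 rose by 0.30, and AT4G14695 stayed at 3.69 and 3.65, within the range of the trp controls.

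Lactate dehydrogenase, which regenerates NAD+ directly from pyruvate, was also higher in SPT4-R3. AT4G17260, listed as LDH1, read 6.89, 6.99 and 7.05 in wild type, against 8.21, 8.23 and 8.25 in SPT4-R3. The genotypes were well separated, and the increase was 1.25 ± 0.0574 (SE, adjusted p = 6.97e-08 in limma), or 2.38-fold. The pyruvate decarboxylase probe sets stood at 2.58 and 2.90, and the gap to them was not tested.

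**Figure D3:**
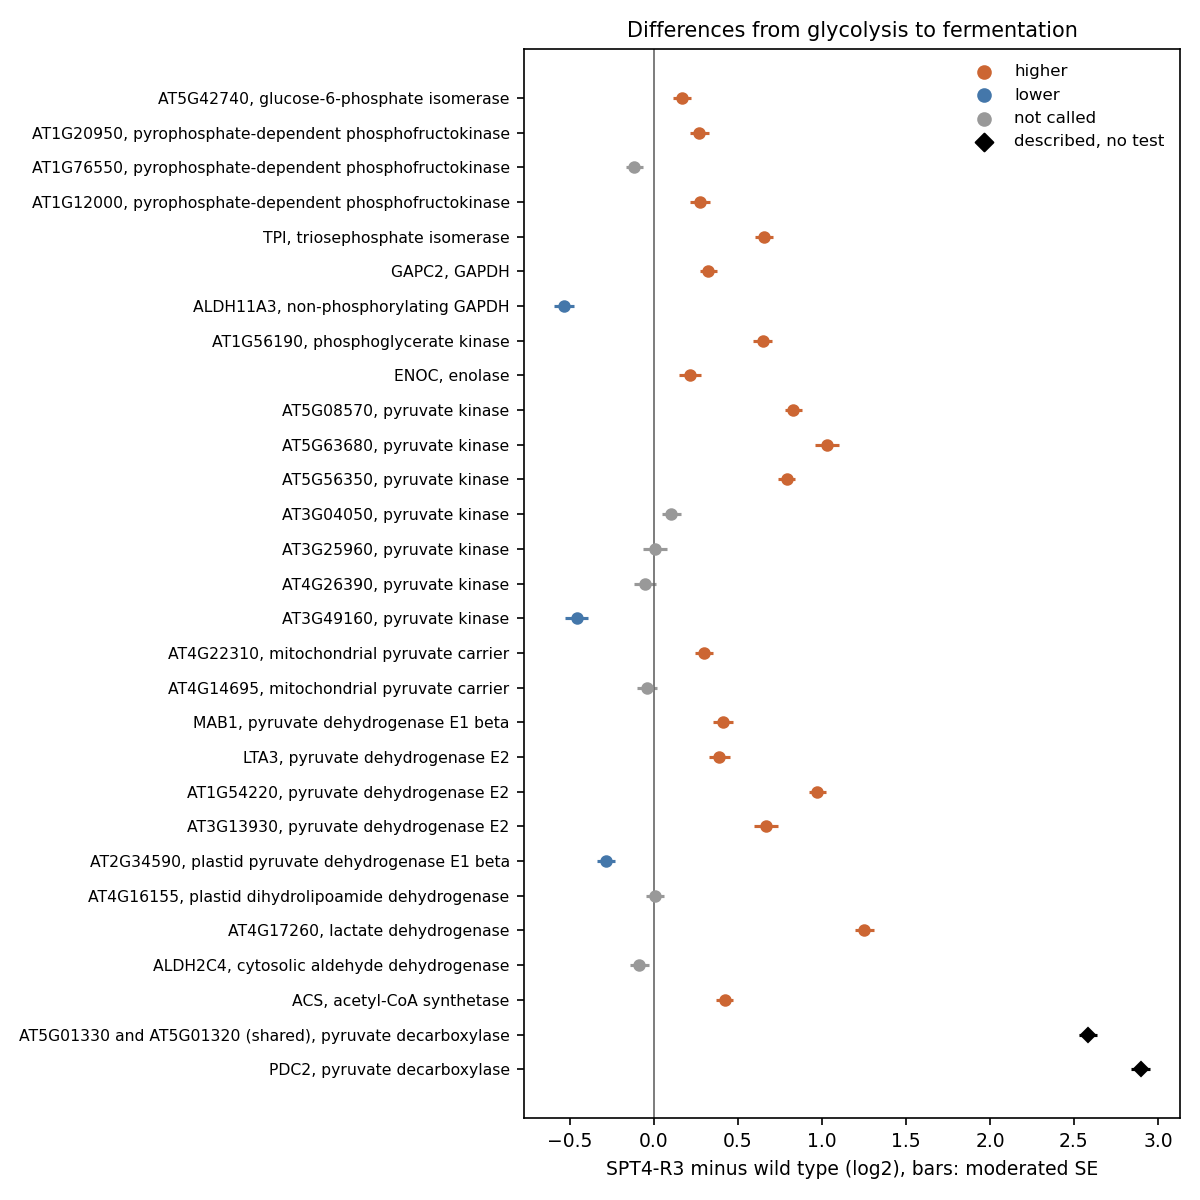
Difference between SPT4-R3 and wild type on the log2 scale (horizontal axis, bars are moderated SEs) for genes from the start of glycolysis to the fates of pyruvate, coloured by the limma call. The 2 pyruvate decarboxylase probe sets, shown without a test, lie at 2.58 and 2.90, and the next highest of those drawn is lactate dehydrogenase at 1.25.

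The other listed genes of fermentation and acetaldehyde use did not move one way. Of 20 listed genes the 3 of the rule were left out. Of the others 10 were measured, of which 5 rose, 4 fell and 1 did not pass the test, with a median of 0.09. Over all genes 24.7% were called higher and 21.6% lower. With 1 array left out the list had 7 to 8 calls. The 5 that rose include the lactate dehydrogenase gene AT4G17260 given above, which acts on pyruvate and is not downstream of pyruvate decarboxylase. ADH1 (AT1G77120), the classical alcohol dehydrogenase of fermentation, was not analysed here. The 7 measured alcohol dehydrogenase-like genes, whose substrates are not settled by these data, gave 3 increases and 4 decreases, between -1.24 and 0.55. On the bio scale the numbers were 4 and 2, where 78.2% of all genes were higher and 5.98% lower. The increase of AT1G22440 (adjusted p = 0.0325 in limma, genotypes overlapping) and the decrease of AT4G22110 (adjusted p = 0.0461) were close to the threshold. AT1G22430 fell by 1.24 ± 0.0639 (SE, adjusted p = 1.63e-07 in limma) from 9.38 to 8.15, AT5G42250 fell by 1.09 ± 0.0677 and AT5G24760 fell by 0.49, while AT1G32780 rose by 0.55 ± 0.0648. On the bio scale AT5G24760 was at -0.10 and lost its call (adjusted p = 0.374 in limma). On the branch from acetaldehyde to acetyl-CoA, ACS (AT5G36880), the acetyl-CoA synthetase, rose by 0.42 ± 0.0530. ALDH2C4 (AT3G24503), listed as a cytosolic aldehyde dehydrogenase, gave -0.09 (adjusted p = 0.25 in limma). These data do not settle whether ALDH2C4 acts on acetaldehyde, so nothing is read from it for that branch.

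Genes that low oxygen is known to induce were called in both directions, close to the shares over all genes. Of 45 listed genes 22 other than PDC1 were measured. Of these 6 rose, 6 fell and 10 did not pass the test, beside 24.7% higher and 21.6% lower over all genes. Their median was 0.002, close to the median of all genes. The largest increase was that of AT5G44730, which read 6.93, 7.11 and 6.92 in wild type, against 8.40, 8.50 and 8.36 in SPT4-R3, a rise of 1.43 ± 0.0681 (SE, adjusted p = 9.00e-08 in limma). The largest decrease was that of AT4G27450, which read 11.21, 11.26 and 11.25 and then 10.07, 9.98 and 10.0, a fall of 1.22 ± 0.0523. AT3G23170 rose by 1.01 and AT4G33560 by 0.79, whereas AT1G33055 fell by 0.62 and AT3G10020 fell by 0.52; on the bio scale AT3G10020 was at -0.13 and lost its call (adjusted p = 0.242 in limma). AT3G10040, which the gene table names HYPOXIA RESPONSE ATTENUATOR1, read 4.35 in wild type, against 4.41 in SPT4-R3 (adjusted p = 0.437), and CML38 (AT1G76650), a calmodulin-like gene, 4.18 and 4.31 (adjusted p = 0.105); AT3G10040 is named after its values were seen. Both were dim, as were 9 of the 22 with means below 5 in both genotypes, where small changes can be missed. On the bio scale 15 of the 22 were higher and 3 lower, where 78.2% of all genes were higher and 5.98% lower.

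**Figure D4:**
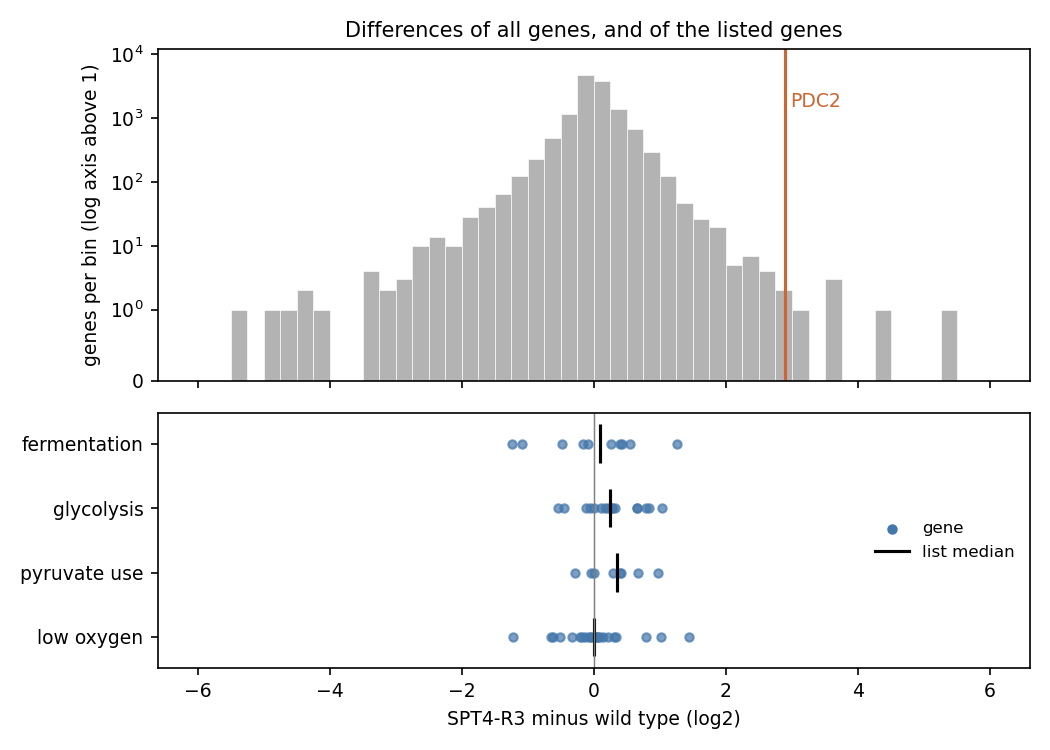
Upper panel, number of genes (log axis above 1) by their difference between SPT4-R3 and wild type on the log2 scale, over 13355 genes, with PDC2 marked at 2.90. Lower panel, the same difference for each measured gene of 4 lists, with the list median; PDC2 lies beyond every gene of these lists, whose highest value is 1.43.

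The genes most like PDC2 over the 6 arrays were found by centring every single-gene probe set on its own mean and taking the root mean square distance from PDC2. The nearest 5 were AT4G15680 at 0.0866, AT4G12490 at 0.116, AT3G15720 at 0.119, CYP71B36 (AT3G26320), a cytochrome P450 gene, at 0.146 and AT3G15310 at 0.175. AT4G15680 read 6.87, 7.0 and 6.81 in wild type, against 9.64, 9.68 and 9.66 in SPT4-R3. The differences of the 5 ran from 2.57 to 3.09. With 2 genotypes and 3 arrays of each, this likeness reflects mainly the size of the difference between the genotypes.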

How the data were processed

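Array signals of 6 samples were analysed from the deposited log2 values, 1 per probe set and array. The authors used Affymetrix Expression Console, per the submitters' processing notes; which algorithm, background correction or normalization it ran is not stated in them or in the labels. The log2 scale was read from the range of the deposited values. No detection call, scan date or count was given, and precision is limited by having 3 arrays per genotype.

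Of 22810 probe sets, 64 were controls and 22746 were tested. Of these 13513 had 1 gene in the platform annotation, 503 several and 8730 none. Genes were tied to loci and symbols through RefSeq (TAIR10.1), used for names and gene order only; of several probe sets for a gene the brightest was taken. Wild type and SPT4-R3 were compared by lmFit and eBayes of limma 3.58.1 (R 4.3.3), two-sided, with Benjamini-Hochberg adjustment over all plant probe sets. The fit was tested on simulated data with known differences.

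The members and lists were chosen with earlier results of these data known. The genes named were, per list, up to 6 called genes with the smallest p and up to 2 of those not called, plus the members, pyruvate kinases beside SPT4 genes and the 5 nearest profiles; others are named after their values were seen, as are all members of the pyruvate kinase, phosphofructokinase and pyruvate dehydrogenase groups. Lists covered fermentation and acetaldehyde, glycolysis, pyruvate use, low oxygen, sucrose breakdown, thiamin, seed maturation, abscisic acid, leaf and root markers. Alternatives were quantile normalization, 3 centrings, a filter on dim probe sets, trend and robust settings, the replicate block and each array left out.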

Additional observations from a re-analysis of the deposited data

How the results depend on the processing

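PDC2 kept its increase under every alternative run, from 2.86 to 2.92 with 1 array left out, and at 3.29 with arrays centred on bioB, bioC and bioD and 3.05 on the poly-A controls. The shared probe set of AT5G01330 and AT5G01320, an alternative added after the data were seen because AT5G01330 had no probe set of its own, ran from 2.55 to 2.61 without 1 array, and read 2.98 and 2.73 under these scalings. The GAPDH control difference was 0.91 and 0.67 under them and 0.47 to 0.55 without 1 array; PDC2 minus the GAPDH controls stayed between 2.35 and 2.39 without 1 array. No value was possible for AT4G33070.

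Of all probe sets 18995 were called on the bioB, bioC and bioD scaling, and 9959 to 10768 without 1 array. With this scaling there were 7 higher and 2 lower fermentation genes, 14 higher glycolysis genes and 7 higher pyruvate use genes. The last 2 lists held no lower ones, and 78.2% of all genes were higher on this scaling. On the poly-A scaling all 5 pyruvate use calls and 63.6% of the low oxygen calls were higher. Over all plant probe sets 73.65% of the calls on the poly-A scaling were higher. The bioB, bioC and bioD scaling turned ALDH2C4 to 0.31, AT1G76550 to 0.28, AT2G34590 to 0.11, AT4G14695 to 0.35, PHYLLO to 0.07, AT3G15670 to 0.39, SBPASE to 0.027, RCA to 0.12, PYK10 to 0.38, EXPA7 to 0.28 and the probe set of AT3G55810 and AT3G55650 to 0.32. The thiamin list had 1 call on the poly-A scaling and 1 to 2 without 1 array, the lower number coming without replicate 1 of wild type and without replicates 2 and 3 of SPT4-R3. Seed maturation had 2 calls on the bioB, bioC and bioD scaling and 1 to 1 without 1 array. The abscisic acid list had 1 call on both scalings and without the dimmest 30% of probe sets, and 0 to 1 without 1 array, the call coming without wild type replicate 2. The cause of these changes was not tested, beyond the common shift that a scaling gives to all genes. On the poly-A scaling too, the SE was the same for each gene named, at 0.1212. Its calls are likewise cutoffs on the shifted difference.

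The replicate numbers gave no sign of pairing: deviations of same-numbered arrays correlated at -0.24, -0.126 and -0.0645. Those of differently numbered arrays ran from -0.103 to 0.204. Deviations centred within 3 arrays are tied to each other, so the values cannot show that the samples were unpaired. With the replicate block PDC2 read 2.90 and 10670 probe sets were called; glycolysis had 11 calls and low oxygen 12.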

Other observations

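The remaining lists had few measured genes. In sucrose breakdown, which feeds glycolysis, 1 of 11 genes was measured, AT1G62660, listed as a vacuolar invertase, and it rose by 0.27 ± 0.0648 (SE, adjusted p = 0.00579 in limma). Of 11 genes for thiamin synthesis and for other enzymes with the cofactor of pyruvate decarboxylase, thiamin diphosphate, 3 were measured. AT5G17380, listed as a 2-hydroxyacyl-CoA lyase, rose by 0.61 ± 0.0581 from 9.14 to 9.75, PHYLLO (AT1G68890) fell by 0.32, a call lost on both control scalings and without wild type replicate 1 (adjusted p = 0.0685 in limma) or SPT4-R3 replicate 2 (0.111) or 3 (0.0537), and THIC (AT2G29630), of thiamin synthesis, gave 0.09 (adjusted p = 0.231). In seed maturation M17 (AT2G41260), a late embryogenesis abundant gene, read 3.72, 3.61 and 3.72 in wild type, against 8.78, 9.17 and 9.04 in SPT4-R3, and the other measured gene of 14, AT3G15670, read 3.88 in both. COR15A (AT2G42540), the only measured gene of 11 of the abscisic acid list, gave 0.17 (adjusted p = 0.0543), while a probe set shared by AT5G15970 and AT5G15960 fell by 1.02 ± 0.0557.

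Genes beside the pyruvate decarboxylase genes, looked at after the data were seen, moved in different directions. Next to PDC2, AT5G54970 rose by 1.15 ± 0.0571 (SE, adjusted p = 1.21e-07 in limma) from 7.20 to 8.35, and on the other side AT5G54950 rose by 0.22 at a low signal of 3.96 to 4.18. AT5G54940, the next gene beyond it, fell by 1.25 ± 0.0594. Near AT5G01330, APTX (AT5G01310) gave -0.10 (adjusted p = 0.148 in limma), but was at 0.29 and called higher on the bio scale. AT5G01350 fell by 0.53 ± 0.0505, or by 0.14 without a call on the bio scale (adjusted p = 0.195 in limma). AT5G54970, AT5G54950 and AT5G54940 were at 1.55, 0.61 and -0.86 on that scale, with the direction of their calls unchanged.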
